A study of Mus musculus with 4 samples.

Results

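The genes described here are 10 components and targets of Nodal and BMP signalling, chosen by symbol: Nodal, Lefty1, Lefty2, Skil, Smad7, Smad6, Id1, Id2, Id3 and Bmp4. They were found by taking every array feature that the platform's probe-to-gene table assigns to 1 of these symbols. This gave 22 features of 9 genes among 45220 features in all, and Smad7 is not analysed here. The samples are cultures of the mouse embryonic stem (ES) cell line E14, each transfected with 1 plasmid and kept under puromycin (1 mg/ml as labelled) from 1 day after transfection until harvest 2 days later. The control arm holds cells with the empty pSuper vector and cells with pSuper carrying a hairpin against luciferase. The Mtf2 RNAi arm holds cells with pSuper carrying Mtf2 hairpin 1 and cells with Mtf2 hairpin 3. RNA of each was hybridised to 1 Cy3 array, so the comparison is 2 arrays against 2, with 1 array per plasmid. Mtf2, also called Pcl2, is a Polycomb-like protein that joins PRC2, the enzyme complex behind the silencing mark H3K27me3.

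Nodal and BMPs are secreted ligands of the TGF-beta family that bind pairs of serine/threonine kinase receptors. Nodal acts through Smad2 and Smad3 and induces its own gene and those of its secreted inhibitors, Lefty1 and Lefty2, so that the Lefty genes are read as a gauge of Nodal activity. BMPs act through Smad1, Smad5 and Smad9, whose best-known targets in ES cells are the Id genes. Id proteins bind basic helix-loop-helix factors and keep them from DNA, and BMP4 with Id proteins is known to help hold mouse ES cells in self-renewal. Smad6 is an inhibitory Smad that BMP signalling induces, and Skil (SnoN) is a co-repressor of Smad proteins that is itself a Smad target.

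The sources used here give the promoter window, from 250 bases before to 50 bases after the gene start, for 5 of the 10 genes. The windows of Smad6, Id2 and Id3 are printed because each holds letters that Smad proteins are known to bind, on GRCm38.p6. GTCTAGAC, the palindromic Smad-binding element, occurs in the Smad6 window with its first base 4 bases before the gene start. On either strand it is found in 0.213% of 32851 promoter windows of this length. The GC-rich element GGCGCC, also a palindrome, occurs in the Id2 window and in 11.9% of all windows. The short element CAGAC, or GTCTG on the other strand, occurs in the Id3 window at 2 places and in 49.6% of all windows. Capitals mark GTCTAGAC in Smad6, GGCGCC in Id2 and both CAGAC copies in Id3. None of the 3 elements was found in the windows of Nodal and Bmp4. A match of letters is a description and shows no binding.
Smad6, chr9:64022010-64022309, minus strand: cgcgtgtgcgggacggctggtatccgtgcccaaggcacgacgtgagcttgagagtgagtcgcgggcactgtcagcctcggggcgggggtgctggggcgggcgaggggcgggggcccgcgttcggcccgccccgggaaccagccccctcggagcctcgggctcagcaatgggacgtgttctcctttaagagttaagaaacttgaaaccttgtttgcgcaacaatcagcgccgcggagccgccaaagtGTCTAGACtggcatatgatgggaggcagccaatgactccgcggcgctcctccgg
Id2, chr12:25096043-25096342, minus strand: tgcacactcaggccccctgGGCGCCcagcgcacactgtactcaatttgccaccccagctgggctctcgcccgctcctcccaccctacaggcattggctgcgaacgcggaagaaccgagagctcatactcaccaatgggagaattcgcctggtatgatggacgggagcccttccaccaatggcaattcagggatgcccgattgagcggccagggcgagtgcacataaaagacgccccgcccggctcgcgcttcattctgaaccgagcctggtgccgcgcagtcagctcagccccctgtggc
Id3, chr4:136143572-136143871, plus strand: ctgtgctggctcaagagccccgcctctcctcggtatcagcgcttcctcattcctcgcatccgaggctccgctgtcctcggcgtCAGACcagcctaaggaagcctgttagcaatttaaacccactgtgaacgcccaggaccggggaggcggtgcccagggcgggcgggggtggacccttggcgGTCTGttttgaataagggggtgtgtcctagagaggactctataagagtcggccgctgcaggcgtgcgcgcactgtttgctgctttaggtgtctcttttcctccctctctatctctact
The windows of these 3 genes hold 31, 21 and 19 CG dinucleotides, against 12 for Bmp4 and 5 for Nodal. Over all windows the median is 7 and the upper quartile 20. Polycomb-like proteins such as Mtf2 are known to contact DNA at CG letters, and such contact was not tested here.

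Values are deposited intensities scaled so that the arrays share a 75th percentile of 22.98 units. Differences are log2 of the Mtf2 RNAi arm over the control arm, with the standard error (SE) of a limma fit on the 35102 features that were above a floor of 1 unit on at least 1 array. All 22 features of the 9 genes were among them, and all 22 lay above the median tested feature of 6.86 units. On 3 of 4 Mtf2 features both Mtf2 RNAi arrays read below both controls, with differences from -1.08 to -0.78, and the fourth, the brightest, read 0.19 higher (SE 0.71) with its controls 2.08 log2 apart, at 175 and 737 units. None of these passed the test. The empty-vector array has a low-reading region along 1 edge, with 1641 positions whose neighbours read low. It also stands apart over all tested features, with a Pearson correlation of 0.945 to 0.949 with each other array, against 0.976 to 0.979 among the other 3. The ES cell markers, 11 of 12 tested, all lay above the median feature, and 7 read higher with Mtf2 RNAi and 4 lower (median difference 0.22). Of the 8 fibroblast and feeder markers 3 lay above the median feature and 5 below it. On their brightest features the 8 had summed levels of 98.5 and 118.5 units on the control arrays and 76.6 and 81.4 on the Mtf2 RNAi arrays. Pdgfrb and Thy1 made up most of each sum, such as 57.6 and 36.85 of the 118.5 units on the empty-vector array. All 8 brightest features read lower with Mtf2 RNAi (median difference -0.35). Other features of the same genes went both ways, such as 0.24 for Thy1 and 0.13 for Col1a2. The part of these markers in the results was not tested. In RNA from whole cultures, fewer cells of a type and less RNA per cell cannot be told apart.

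No gene of the group passed the limma test, adjusted over every feature fitted. The adjusted p of the 22 features ran from 0.868 to 0.991, and no feature of the whole array passed (0.0% of 35102, against 1467 features, or 4.18%, at an unadjusted p under 0.05). Represented by its brightest feature, each of 7 genes read lower with Mtf2 RNAi and each of 2 higher, and their median difference was -0.12, against -0.01 over 16764 genes. Skil, Smad6 and Bmp4 were the 3 genes with both Mtf2 RNAi arrays below both controls, a pattern shown by 18.3% of all genes. None had both arrays above both controls, which 15.1% of all genes showed, and 33.3% of all genes had separate arms in either direction. By feature, 6 of 22 had both Mtf2 RNAi arrays lowest (17.5% of all features) and 1 of 22 had both highest (14.7% of all features), or 32.2% together over the array. With 1 array left out, so that 1 arm is a single array, separate arms in either direction are more frequent among all genes as well. The count was 7 of 9 without the empty-vector array (63.1% of all genes), 8 without the luciferase array (66.9%), 6 without hairpin 1 (62.9%) and 3 without hairpin 3 (64.9%). An exact permutation test on 2 against 2 arrays cannot give a two-sided p below 0.333, so none is given for single genes.

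**Figure D1:**
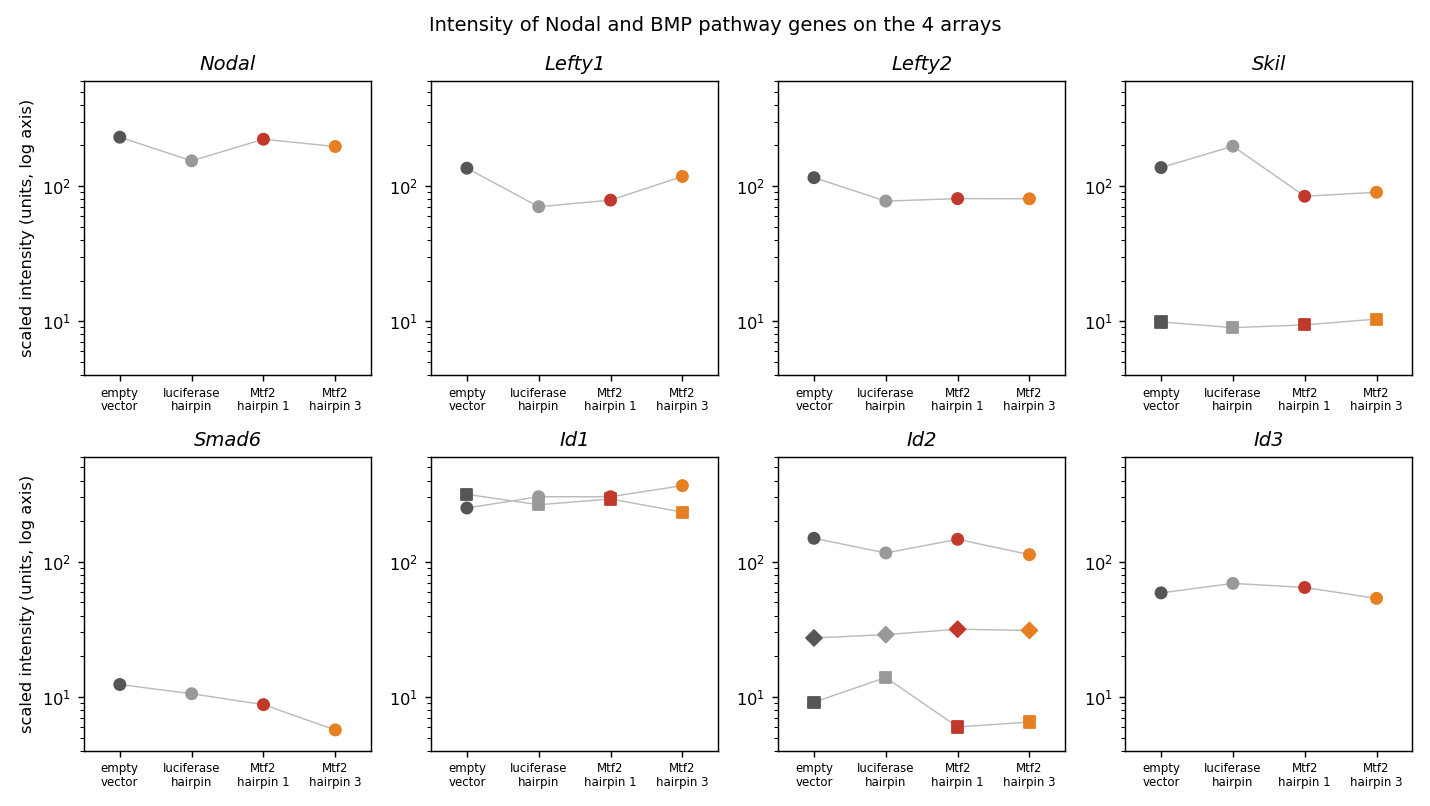
Scaled intensity (log axis, units) of each feature of 8 genes on the 4 arrays, with 1 point per feature and array. Circles are the brightest feature of a gene, squares and diamonds its other features, and lines join 1 feature. The control points are grey and the Mtf2 RNAi points red and orange. The upper line of Skil steps down from 137 and 198 units in the controls to 84.1 and 90.1 units, while its lower line stays between 8.95 and 10.4.

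Nodal, the ligand, read 230.3 units on the empty-vector array and 154 on the luciferase array, against 222 for Mtf2 hairpin 1 and 196.5 for hairpin 3. Both Mtf2 RNAi values lay between the controls, which were 0.58 log2 apart. The difference between the arms was 0.15 (SE 0.28, 95% interval -0.57 to 0.87, limma adjusted p = 0.923). Its direction depended on the control used, at 0.44 without the empty-vector array and -0.14 without the luciferase array.

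Lefty1, the first of the secreted Nodal inhibitors, read 136 units on the empty-vector array and 70.4 on the luciferase array, against 78.8 for hairpin 1 and 118 for hairpin 3. The spread inside each arm, 0.95 log2 between the controls and 0.58 between the hairpins, was larger than the difference between the arms, -0.02 (SE 0.40, interval -1.05 to 1.01, adjusted p = 0.991). Without the empty-vector array it was 0.45, and without the luciferase array -0.49. Lefty2, the neighbouring paralogue, read 116 and 77.4 units in the controls, and hairpins 1 and 3 gave 80.8 and 80.6. Here 3 arrays lay close together and the empty vector stood above them, and the difference was -0.23 (SE 0.27, interval -0.93 to 0.47, adjusted p = 0.885). Against the luciferase hairpin alone it was 0.06 with either Mtf2 hairpin. The probe letters of these close paralogues are not given in these sources, and cross-hybridisation between them was not tested.

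Nodal, Lefty1 and Lefty2 showed 1 order in common, with the empty vector highest and the luciferase hairpin lowest of the 4 arrays. Over all genes, 8.59% showed that order, and the empty-vector array is the one that stands apart from the rest. It was noticed after the values were seen and carries no test. In that order both Mtf2 RNAi arrays lie between the controls.

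Skil, the Smad co-repressor, gave the most negative difference among the brightest features and the lowest unadjusted p (0.0172). Its brighter feature read 137 units for the empty vector, 198 for luciferase, 84.1 for hairpin 1 and 90.1 for hairpin 3. Both Mtf2 hairpins lay below both controls and close to each other. The difference was -0.92 (SE 0.27, interval -1.60 to -0.24, limma adjusted p = 0.868), a ratio of 0.529. This was the only interval of the 22 that did not cover 0, where 4.18% of all features had an unadjusted limma p under 0.05. The position of this Skil feature falls in the low region of the empty-vector array. Its neighbours there deviate by a median of -1.60 log2 from the median of the 4 arrays. Against the luciferase hairpin alone the difference was -1.23 with hairpin 1 and -1.13 with hairpin 3. Against the empty vector alone it was -0.66, and with the neighbours' deviation subtracted from each value it was -1.61 (SE 0.44). That subtraction put the empty vector above the luciferase hairpin, which it had read 0.53 log2 below. The second Skil feature, which carries the same transcript accession, read 9.86 and 8.95 units in the controls, and hairpins 1 and 3 gave 9.38 and 10.4. It showed no such step, at 0.07 (SE 0.31, interval -0.72 to 0.86, adjusted p = 0.962), so the lower value of Skil rests on 1 of 2 features.

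Smad6, the inhibitory Smad of the BMP branch, read 12.3 units for the empty vector, 10.6 for luciferase, 8.76 for hairpin 1 and 5.69 for hairpin 3. The arms did not overlap, but the highest Mtf2 RNAi value stood only 0.27 log2 below the lowest control, and the hairpins were 0.62 apart. The difference was -0.69 (SE 0.37, interval -1.64 to 0.25, limma adjusted p = 0.868). It was -0.38 without hairpin 3 and -1.0 without hairpin 1. This is the only feature of the gene, and among the brightest features of the 9 genes it lay nearest to the floor.

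**Figure D2:**
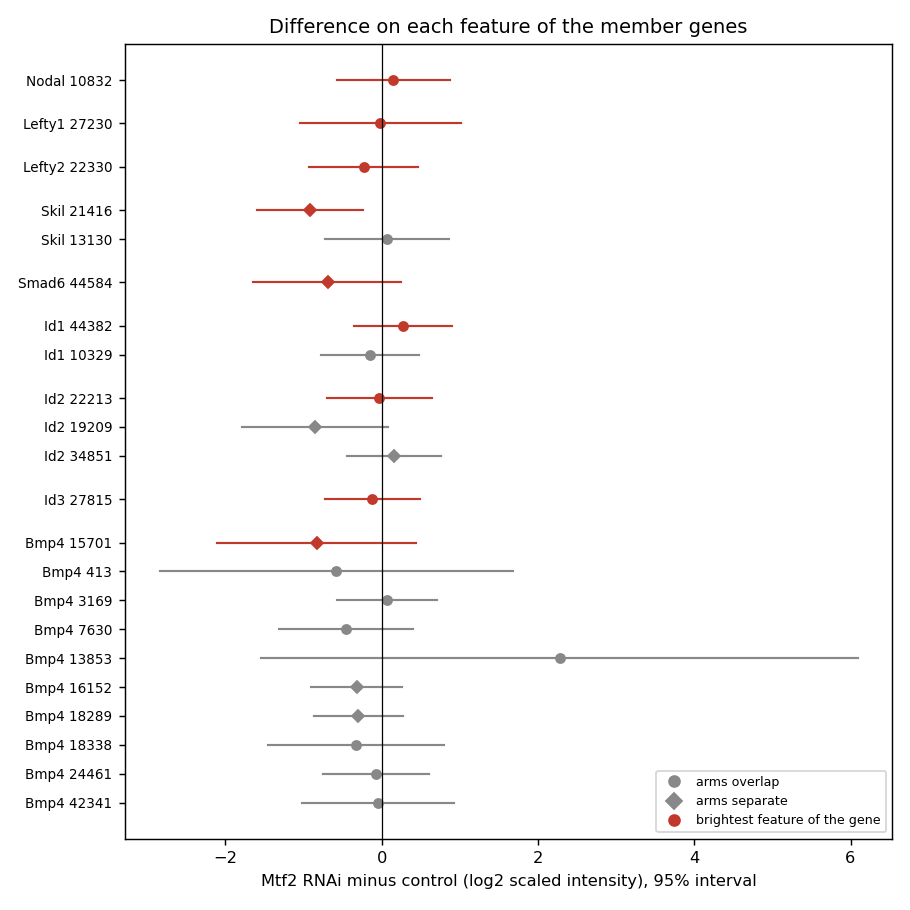
Difference between the arms on each of the 22 features (Mtf2 RNAi minus control, log2 scaled intensity), named by gene and feature number. Points are the difference, bars the 95% interval of the limma fit, diamonds mark features whose arms do not overlap, and red marks the brightest feature of a gene. The bar of Skil 21416 ends at -0.24, and every other bar crosses 0. Over the array, 4.18% of features had an unadjusted limma p under 0.05.

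The Id genes, the main BMP targets, lay close to 0 on their brightest features. Id1 read 250.4 and 303.5 units in the controls and 303 and 367 with hairpins 1 and 3 on its brightest feature, a difference of 0.27 (SE 0.24, interval -0.35 to 0.90, adjusted p = 0.868). The Mtf2 hairpin 1 value and the luciferase value were nearly equal, so the arms overlapped. On the second Id1 feature, of the same accession, the values were 316 and 265 units in the controls and 292 and 233 with the hairpins. This gave the opposite sign, -0.15 (SE 0.25, adjusted p = 0.916), and the mean over both features was 0.06 (SE 0.20, interval -0.44 to 0.57).

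Id2 was measured on 3 features that did not move together. The brightest read 149 and 116 units in the controls and 147 and 113 with the hairpins, and the difference was -0.03 (SE 0.26, interval -0.70 to 0.64, adjusted p = 0.980). A second feature of that accession read 27.3 and 28.9 units against 31.7 and 31.0, with both hairpins slightly above both controls, at 0.16 (SE 0.24, adjusted p = 0.905). The remaining feature, which belongs to another transcript accession, read 9.13 and 13.9 units against 5.98 and 6.51. Here both hairpins lay below both controls, at -0.85 (SE 0.37, interval -1.79 to 0.08, adjusted p = 0.868). It lies near the edge, but its neighbours on the empty-vector array had a median deviation of 0.00. The mean over the 3 features was -0.24 (SE 0.21) and the median over them 0.16 (SE 0.22), so the sign for Id2 depended on how its features were combined.

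Id3 read 58.9 and 69.2 units in the controls and 64.6 and 53.6 with the hairpins. The arms overlapped and the difference was -0.12 (SE 0.24, interval -0.73 to 0.49, adjusted p = 0.926). For the brightest features of Id1, Id2 and Id3 the intervals lay within 1 log2 unit of 0 on either side. The median half-width of the interval was 0.79 for all features above the median level.

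Bmp4, the ligand, was spotted 10 times under 1 accession, which shows how far single spots scatter. Whether all 10 spots carry the same probe is not given in these sources. The median spot read 43.5 units for the empty vector, 41.9 for luciferase, 35.0 for hairpin 1 and 39.4 for hairpin 3. The medians of both Mtf2 hairpins thus lay below those of both controls, but the spots of 1 array spanned a wider range than the step. They ran from 1.64 to 104 units for the empty vector, from 27.9 to 65.7 for luciferase, from 10.2 to 40.9 for hairpin 1 and from 24.5 to 65.5 for hairpin 3. The standard deviation over spots was 1.62, 0.33, 0.59 and 0.40 log2 on these arrays, and 0.52 for the empty vector without the spot in its low region.

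Of the 10 Bmp4 spots 8 read lower with Mtf2 RNAi and 2 higher, and on 3 the arms did not overlap, all in the lower direction, against 17.5% of all features in that direction. The fit on the mean over all 10 spots gave -0.06 (SE 0.24, interval -0.67 to 0.55, limma adjusted p = 0.971). The fit on the median over spots, chosen after the data were seen, gave -0.20 (SE 0.22, interval -0.75 to 0.34, limma adjusted p = 0.892). Of the 180 genes with at least 8 tested features, 55 had a difference of the median at least that large, Bmp4 included, and none passed. The spot that is brightest on average, and so stands for the gene by rule, gave -0.83 (SE 0.50, interval -2.11 to 0.44, adjusted p = 0.868). That value rests on 104 units with the empty vector, where the other 3 arrays read 38.5, 35.4 and 35.8, and it was -0.11 without the empty-vector array and -1.55 without the luciferase array (limma adjusted p = 0.168). Another spot gave 2.28 (SE 1.49), because it read 1.64 units in the low region of the empty-vector array against 42.1, 33.8 and 47.8 elsewhere. Yet another stood apart on the hairpin 1 array, at 10.2 units against 32.6, 45.7 and 65.5. Of the 3 spots with separate arms, 2 gave -0.32 (SE 0.23) and -0.30 (SE 0.22). Spots with similar errors but overlapping arms gave 0.07 (SE 0.25) and -0.07 (SE 0.27). Over the 9 spots outside the low region, also a choice made after the data were seen, the mean difference was -0.32 (SE 0.23, limma adjusted p = 0.874). This mean still holds the spots that stood apart at 104 and 10.2 units, which gave -0.83 and -0.58.

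**Figure D3:**
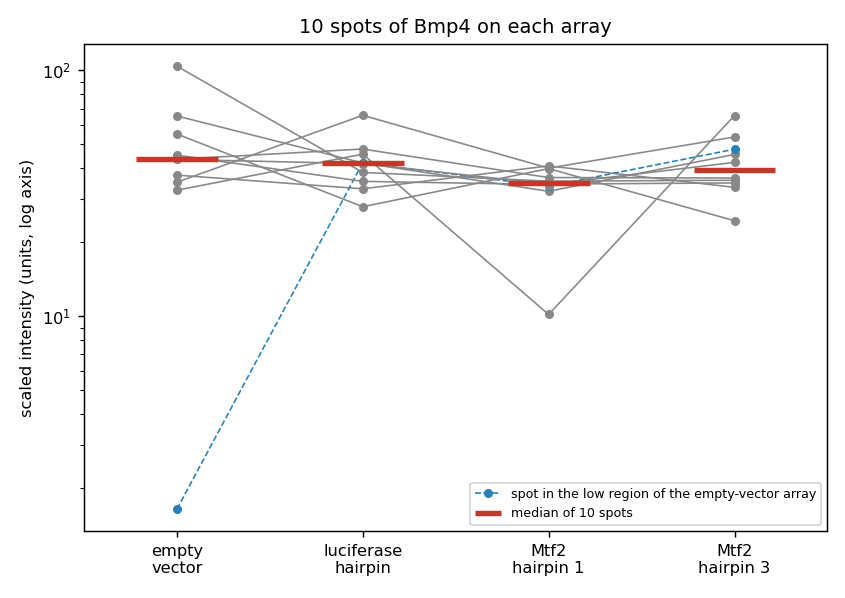
Scaled intensity (log axis, units) of the 10 Bmp4 spots on each array. Each line joins 1 spot over the 4 arrays, red bars are the median of the 10 spots, and the dashed blue line is the spot in the low region of the empty-vector array. The medians run from 35.0 to 43.5 units, while single spots reach 1.64, 10.2 and 104 units.

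The spread inside the arms can be set beside these differences. Of the 22 features, 2 differed at least 2-fold (1 log2 unit) between the luciferase hairpin and the empty vector, both spots of Bmp4, against 9.96% of all features and 8.43% of those above the median level. Between hairpin 3 and hairpin 1, 1 feature did, also a Bmp4 spot, against 7.9% of all features and 5.07% of those above the median level. The mean difference between the arms reached that size on 1 feature, the Bmp4 spot in the low region. The share of all features that reached it was not counted. Over all genes by their brightest feature, the middle 95% of differences ran from -0.90 to 1.19.

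Other genes of the 2 pathways were taken from 10 lists of 79 genes (Smad9 is in 2 of them), of which 70 were tested and none passed limma's test in either direction. Of them 38 read higher and 32 lower, with a median of 0.06. Both Mtf2 RNAi arrays lay above the controls for 13 of the 70 (15.1% of all genes) and below them for 13 (18.3% of all genes). An unadjusted p under 0.05 was reached by 3 of the 70 (Inha, Zfyve9 and Smad1) against 4.18% of all genes. The genes named below are the 2 with the smallest p in each list, and each had an adjusted p = 0.868 in limma.

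Among 11 ligands, co-receptors and convertases of the Nodal, activin and TGF-beta branch, 8 read higher and 3 lower (median 0.12). Inha, the inhibin alpha subunit, read 0.80 higher (SE 0.27) at about the floor, and its other feature gave -0.43. Furin, a convertase that can cleave Nodal, read 0.42 higher (SE 0.27). Among 7 receptors 6 read higher and 1 lower (median 0.19), with the type I receptor Tgfbr1 at 0.58 (SE 0.37) and Acvr1c, the receptor ALK7, at -0.80 (SE 0.49) near the floor. The 6 Smad2/3 transducers and partners split evenly (median 0.10). Smad2 read 0.46 higher (SE 0.25), at 60.3 and 46.1 units in the controls and 68.7 and 77.0 with the hairpins. Zfyve9, an adaptor for Smad2 and Smad3, read -1.69 (SE 0.39) on its brightest feature and between -0.14 and 0.63 on its other 4. That brightest feature lay below the median tested feature, at 6.64 and 6.39 units in the controls and 2.57 and 1.59 with the hairpins. Another feature of the same accession gave the -0.14, with overlapping arms.

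Of 9 feedback genes and inhibitors of that branch, 5 read higher and 4 lower (median 0.04). The ubiquitin ligase Smurf2 read 0.61 higher (SE 0.27), with -0.25 on its other feature, and the co-repressor Tgif1 0.56 higher (SE 0.32). Of 6 other Nodal and activin targets 2 read higher and 4 lower (median -0.18). Among them the growth factor Fgf8 read -0.68 (SE 0.35) and the homeobox gene Lhx1 -0.51 (SE 0.38). Both are spotted repeatedly, and the other 10 features of Fgf8 ran from -0.68 to 0.07, while those of Lhx1 ran from -0.75 to 0.84.

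In the BMP branch, 5 of 9 ligands read higher and 4 lower (median 0.07). Bmp6 read 1.28 higher (SE 0.74) with the luciferase array at the floor, and its other feature gave 0.02. Bmp3 read 0.47 higher (SE 0.29) at 1.88 units or less. The 6 receptors split evenly (median -0.10), with the type II receptor Bmpr2 at -0.41 (SE 0.26) and Acvr1 at 0.32 (SE 0.26). All 3 BMP transducers read lower (median -0.34), where 50.8% of all genes read lower. The dimmest of them, Smad9, gave -0.27 (SE 0.44) with overlapping arms, at under 3 units on every array. Smad1 read 184 and 155 units in the controls against 102 and 116.5 with the hairpins, a difference of -0.63 (SE 0.23, interval -1.21 to -0.05), but its second feature of that accession gave 0.08 (SE 0.26). Smad5 read -0.34 (SE 0.23), with -0.70 and 0.29 on its other features.

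Of 7 BMP antagonists 4 read higher and 3 lower (median 0.19), with Nog (noggin) at 0.91 (SE 0.44), under 9 units on every array. Fst (follistatin) read 0.36 (SE 0.29), at the floor on every array except hairpin 3, where it read 1.66 units. Of 7 further BMP targets 2 read higher and 5 lower (median -0.27). Hey1, a transcriptional repressor, read 91.7 and 64.7 units in the controls and 64.5 and 41.3 with the hairpins, at -0.58 (SE 0.33). Atoh8 read -0.82 (SE 0.44) near the floor.

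**Figure D4:**
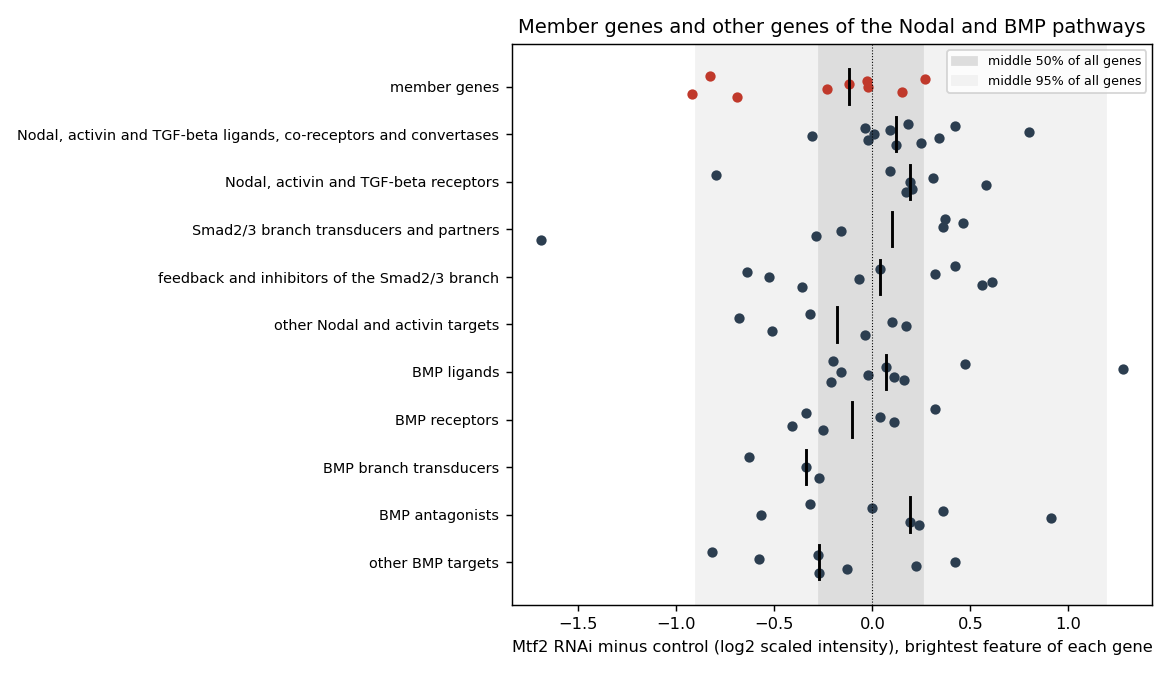
Difference between the arms (Mtf2 RNAi minus control, log2 scaled intensity) for the brightest feature of each gene, by list. Each point is a gene, black bars are list medians, the dark band holds the middle 50% of all 16764 genes (-0.27 to 0.26) and the light band the middle 95% (-0.90 to 1.19). Skil at -0.92, Zfyve9 at -1.69 and Bmp6 at 1.28 lie outside the light band.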

How the data were processed

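Each of 4 Cy3 arrays measured total RNA of E14 cells carrying 1 plasmid. The values are the authors' deposited intensity per array feature, linear and, from values below 0, background-subtracted. Scanner, extraction software, background method, normalization and genome build were not given in the sources used here. Arrays were scaled to a common 75th percentile (22.98 units), values under 1 unit raised to 1, and log2 taken. Of 45220 features, 10118 never exceeded the floor and did not enter the fit. The 35102 others were fitted with limma 3.58.1 under R 4.3.3, using lmFit and eBayes (trend on intensity). P-values were adjusted by Benjamini-Hochberg, with a threshold of 0.05. The procedure was tested on simulated data, where a count of detected changes was required only with more arrays per arm than here. That test does not show that changes are detected at the present size. No detection calls were used, and the number of arrays limits the precision.

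Features were named through the platform annotation of 2016, in which 33653 carry 1 symbol, 56 carry several and 11511 are not listed. The feature with the highest mean log2 value stood for its gene. Members, lists and tests were chosen with earlier results of these data known. Named pathway genes are the 2 with the smallest p in each list. Array positions assume 532 rows of 85 features, and a position was called low or high where its neighbours in a 7 by 7 square deviated by a median of over 0.5 log2. Alternatives covered scaling, floor, filter, trend, feature choice, positions and leaving out each array. The series' design text calls the 4 plasmids independent experiments, and each was hybridised once, so p-values measure the spread between plasmids within an arm, with no repeat of any plasmid.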

Additional observations from a re-analysis of the deposited data

How the results depend on the processing

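Under 16 alternatives, 2 of them chosen after seeing the data (the median over all features of a gene, and the mean over features at sound positions), no member gene and no other pathway gene passed the threshold. Over all features the count past it stayed at 0, except for 36 with no filter on dim features. The number of member genes with separate arms, 3 as reported, was 2 without features at low positions, 4 by the mean over features, by the mean at sound positions and with neighbours' deviations subtracted, 5 by the median over features, and 3 to 8 when 1 array was left out. Smad6, Id1 and Bmp4 kept their sign in all 16, but their sizes ran from -1.0 to -0.38, from 0.06 to 0.41 and from -1.55 to -0.06. Much of this was fixed in advance. The floor, filter and trend settings left these differences as they were. Genes with separate arms, here Smad6 and Bmp4, cannot change sign when 1 array is left out. The second feature of Id1 had the opposite sign, at -0.15. Skil went to 0.07 both without features at low positions and by the mean at sound positions, since its brighter feature is then left out. Lefty1 went to 0.07 with the neighbours' deviations subtracted. Id2 went to 0.00 with quantile normalization, 0.10 with neighbours' deviations subtracted and 0.16 by the median over features. Leaving out 1 array, Nodal ran from -0.14 to 0.44, Lefty1 from -0.49 to 0.45, Lefty2 from -0.52 to 0.06, Id2 from -0.22 to 0.16 and Id3 from -0.25 to 0.02. Apart from Skil, the cause of these changes was not tested. No paired analysis was possible because the labels give no replicate numbers that the arms share. A lone array in an arm is assumed to vary like the others.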
